A study of Mus musculus with 6 samples.

Results

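The Hox genes of the mouse are homeobox genes in 4 clusters, and 38 of them are described here, each with at least 1 probe on the array used to compare trunks of Arid3b-null and wild-type embryos. They were taken by name, from non-control probes whose gene symbol is Hoxa, Hoxb, Hoxc or Hoxd followed by a number from 1 to 13. They are 38 of the 32530 genes and 41 of the 39429 probes on the array. Of those genes 20021 have a symbol, and the rest are probe accessions without one, each counted as a gene here and below. The rule uses names only. Of the 38 genes, 30 were bright enough to be tested, meaning that a probe stood well above background on every array of wild type, of Arid3b-null or of both.

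The study measured RNA from the trunk of the mouse embryo at embryonic day 9.5, cut so as to run from the otic vesicle back to somite 15 with the forelimb buds attached. Wild-type embryos were compared with embryos labelled Arid3b-null. Arid3b is a DNA-binding protein with an AT-rich interaction domain. Each group had 3 one-colour Agilent arrays, and each array carried pooled RNA of 4 embryos, 24 embryos in all. Arrays of a group therefore differ as pools do, not as single embryos, and they also lie on different slides. Every p-value from a fit without the slide as a block measures both kinds of spread together. The labels name neither a strain nor the form of the null allele. Because whole trunks were extracted, fewer cells of a type and less RNA per cell cannot be told apart.

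Hox genes encode homeodomain transcription factors that give the tissues of the trunk, the hindbrain and the limbs their position along the head-to-tail axis. Each cluster is a run of genes in 1 direction of transcription, and genes at the same place in different clusters form a paralogue group and share the most sequence. Low-numbered groups are switched on early and reach far forward into the hindbrain, while high-numbered groups come on late and stay toward the tail and in the distal limb, an order known as collinearity. Retinoic acid, Wnt and Fgf signals and the Cdx factors start the clusters, Polycomb proteins hold the silent part closed, and the proteins bind DNA together with cofactors of the TALE homeodomain class. In the mouse the Hoxa cluster lies on chromosome 6, Hoxb on 11, Hoxc on 15 and Hoxd on 2.

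The 6 arrays were alike in brightness, with a 75th percentile of the processed signal between 611 and 844 units. Correlations over the tested genes were 0.989 to 0.995 within wild type, 0.990 to 0.993 within Arid3b-null and 0.969 to 0.983 between the groups. Levels are log2 processed signals relative to the array's own 75th percentile, and a change is the Arid3b-null level minus the wild-type level. Each slide carried 1 array of either group. The targeted gene checked the labels, since the brightest Arid3b probe read 2.18, 2.57 and 1.97 in wild type and 0.54, 0.65 and 0.46 in Arid3b-null, so 31.0% of the signal was left. Its other 2 probes, both dimmer, kept 10.6% and 26.9%, and whether any of the probes lies in the part removed by the null allele is not known here. The tissue carried forelimb-bud Tbx5 and somite Meox1 well above background on every array. Of the markers of more caudal tissue, Msgn1 and Wnt3a were above background on no array and Tbx4 on 2 wild-type arrays and 1 Arid3b-null array. Pitx1 and the 4 tested tail bud genes, T, Tbx6 and Dll3 among them, were above it on all 6.

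Among the 30 tested Hox genes, 3 rose and 8 fell in Arid3b-null trunks and 19 did not pass (limma, p-values adjusted by Benjamini-Hochberg over the 19794 genes tested, threshold 0.05). Higher members were 10% of those tested, beside 13.6% of all tested genes, and lower members 26.7%, beside 12.9%. In either direction 36.7% of the tested Hox genes passed, beside 26.6% of all genes. Arrays of the groups did not overlap for 17 of the 30, or 56.7%, beside 46.2% of all genes. The share of Hox genes higher was thus a little below the background and the share lower above it, and neither difference was tested. The median change was -0.25, beside -0.039 for all genes, and it was -0.029, -0.28 and -0.37 on the 3 slides.

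The genes that rose were Hoxd1, Hoxd3 and Hoxb9, and those that fell were Hoxa11, Hoxd10, Hoxa10, Hoxa7, Hoxb7, Hoxa4, Hoxa5 and Hoxb3. Each of these 11 changed in the same direction on all 3 slides. Of these, 0 rose by at least 2-fold (3.7% of all genes did), and Hoxa10, Hoxa11 and Hoxd10 fell by at least 2-fold, 10% of the tested Hox genes beside 2.85% of all genes. With normexp on each array's median background Hoxa10 fell 1.56-fold and so was no longer among them. With normexp correction on local background in place of the scanner's processed signal no Hox gene passed in limma, with 2 higher and 6 lower at an unadjusted p under 0.05. Of all genes 2 passed as higher and 0 as lower there, with 1018 and 887 at the unadjusted threshold. Without the filter on dim probes 1 of these 30 Hox genes was higher and 3 lower. Leaving out 1 array at a time gave 2 to 4 higher and 4 to 10 lower, and the number lower was 4 when the array left out was wild-type replicate 1, wild-type replicate 3, Arid3b-null replicate 2 or Arid3b-null replicate 3. Hoxd1, Hoxa10, Hoxa11 and Hoxd10 kept their calls under all 15 alternatives other than the local-background one.

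**Figure D1:**
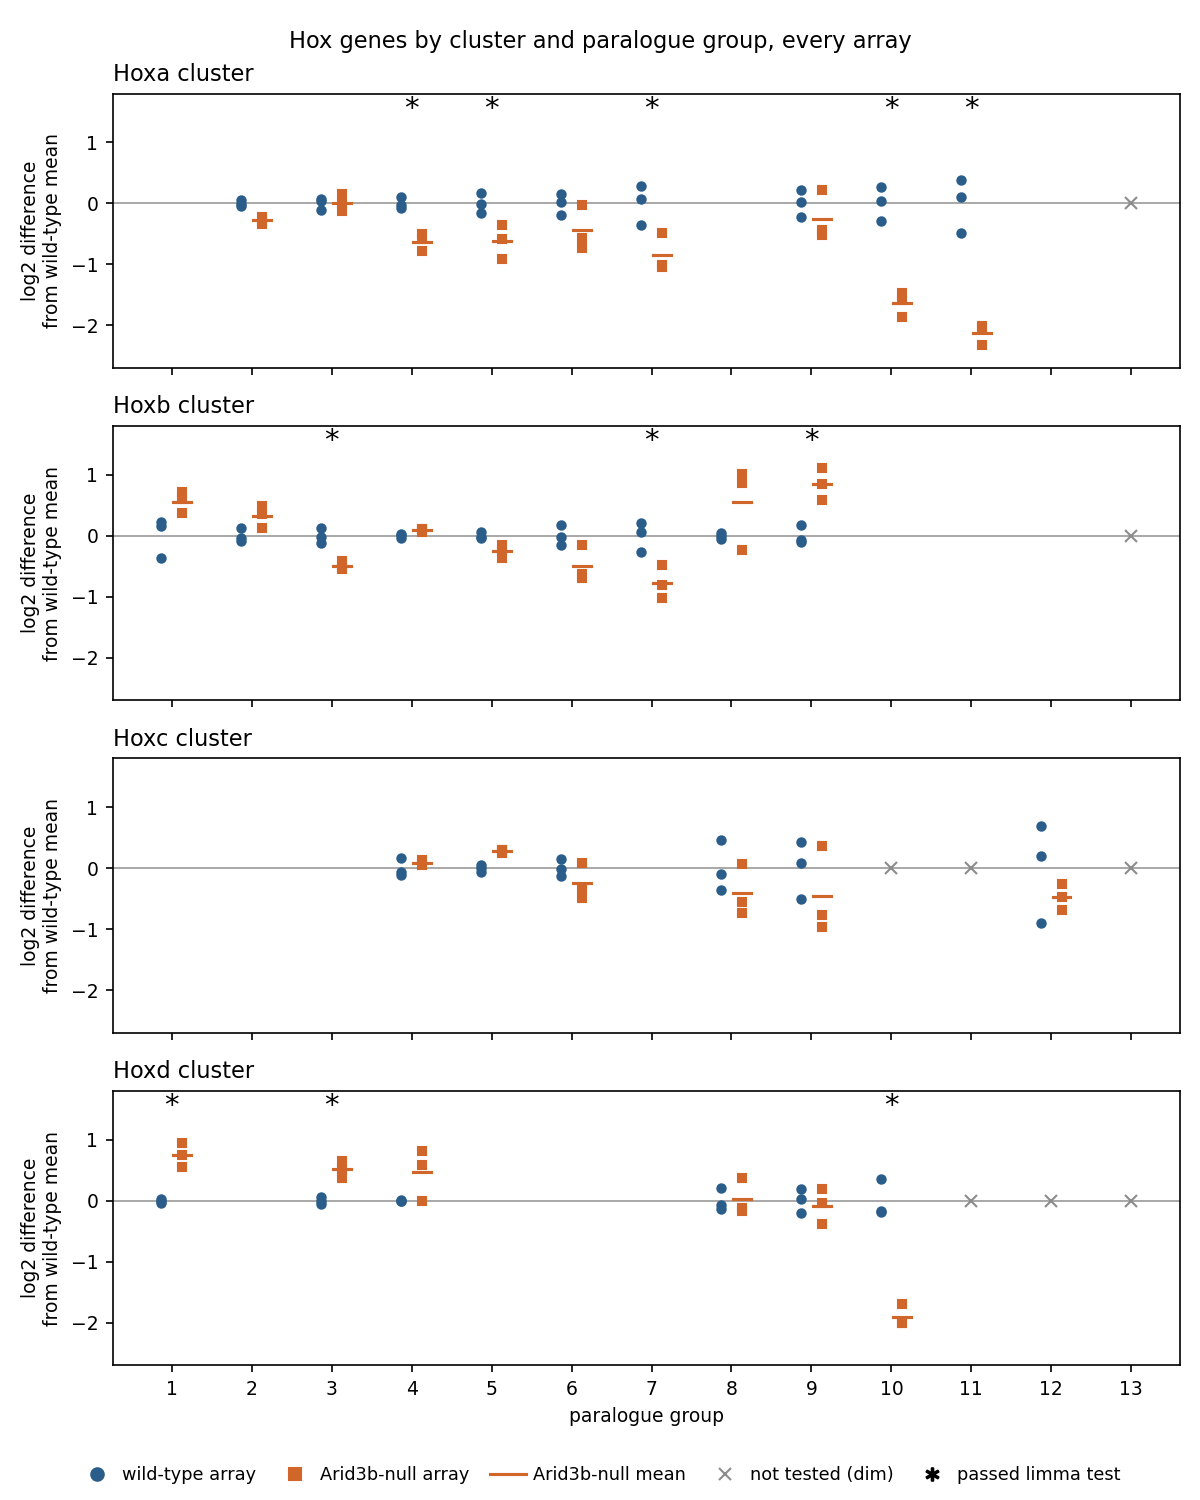
Log2 signal of 38 Hox genes on every array, drawn as the difference from the gene's wild-type mean (vertical axis, log2) against the paralogue group (horizontal axis), 1 panel per cluster, with circles for the 3 wild-type arrays, squares for the 3 Arid3b-null arrays, a bar for the Arid3b-null mean, crosses for genes too dim to test and asterisks for genes that passed limma. Hoxb9 stands above its wild-type arrays by 0.85 and Hoxa10, Hoxa11 and Hoxd10 stand below theirs by 1.64, 2.13 and 1.90 on the log2 scale.

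Paralogue groups 1 to 3, which pattern the hindbrain and its neural crest, had 7 members described here, all tested. Of these, 2 rose, 1 fell and 4 did not pass, with a median change of 0.32, where 13.6% of all tested genes rose and 12.9% fell. The genes that rose were Hoxd1 and Hoxd3, both of the Hoxd cluster.

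Hoxd1, of group 1 and best known from sensory neurons of the skin, read -2.22, -2.16 and -2.19 in wild type and -1.24, -1.44 and -1.65 in Arid3b-null. The wild-type arrays were nearly equal, and each Arid3b-null array was above them. The change was 0.75 ± 0.13 (SE), 1.68-fold (95% interval 1.36 to 2.08, limma adjusted p = 0.00856), and under the local-background correction it was 0.015 (limma adjusted p = 0.985). Hoxb1, which fixes the identity of rhombomere 4, read -1.11, -1.04 and -1.63 in wild type and -0.67, -0.89 and -0.55 in Arid3b-null. Its arrays did not overlap either, but the change of 0.56 ± 0.19 (SE) did not pass (limma adjusted p = 0.0693, 95% interval 0.11 to 1.01), and it passed only with normexp on each array's median background (limma adjusted p = 0.0489). Hoxd1 and Hoxb1 were thus both higher on every Arid3b-null array than on any wild-type array.

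Group 2 sets the identity of the second pharyngeal arch and of facial motor neurons, and neither member passed. Hoxa2 read 0.26, 0.19 and 0.16 in wild type and -0.015, -0.082 and -0.13 in Arid3b-null, a change of -0.28 ± 0.098 (SE) (limma adjusted p = 0.0781). Hoxb2 read 1.44, 1.61 and 1.39 in wild type and 1.96, 1.84 and 1.60 in Arid3b-null, a change of 0.32 ± 0.13 (SE) (limma adjusted p = 0.119). The Hoxa2 arrays were separate with the Arid3b-null arrays lower, while those of Hoxb2 met at the boundary, so the values of this pair lay on opposite sides of 0.

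Group 3, which acts in the lower hindbrain, the neck and the pharyngeal glands, held members called in opposite directions. Hoxd3 read 0.90, 0.95 and 1.03 in wild type and 1.47, 1.61 and 1.34 in Arid3b-null. It rose by 0.51 ± 0.11 (SE), 1.43-fold (limma adjusted p = 0.0187), with no overlap. The limma adjusted p was 0.0803 without the filter, and with 1 array left out it was 0.0746 and 0.0578 without wild-type replicate 1 or 2 and 0.0536 and 0.0543 without Arid3b-null replicate 1 or 2. Hoxa3 stayed between 1.14 and 1.41 on all 6 arrays, and its change of 0.0090 (95% interval -0.28 to 0.29) had no settled sign over the alternatives.

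Hoxb3 was called lower on the brighter of its 2 probes. That probe read 0.11, -0.14 and -0.041 in wild type and -0.44, -0.56 and -0.57 in Arid3b-null, with all Arid3b-null arrays below the wild-type arrays and a change of -0.50 ± 0.11 (SE) (limma adjusted p = 0.0203). The dimmer probe read -0.90, -0.74 and -0.64 in wild type and -0.83, -1.09 and -0.44 in Arid3b-null, where the arrays overlapped, and changed by -0.025 ± 0.18 (SE, limma adjusted p = 0.933 over all probes, of which 26.3% passed). The 2 probes of Hoxb3 therefore disagree, and their mean changed by -0.26 (limma adjusted p = 0.148). The call on the brighter probe also ended without the filter on dim probes (0.0859) and without wild-type replicate 1 or 3 (0.0802 and 0.0518) or Arid3b-null replicate 2 or 3 (0.0607 and 0.0639), all limma adjusted p.

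Paralogue groups 4 to 8 pattern the neck, the brachial spinal cord, the forelimb field and the thoracic somites, which make up most of the dissected piece. All 15 members were tested: 0 rose, 4 fell and 11 did not pass in limma (1 higher and 6 lower at an unadjusted p under 0.05), with a median change of -0.26. The shares of all tested genes were 13.6% higher and 12.9% lower. Hoxa4, active in the cervical region, read -0.36, -0.48 and -0.53 in wild type and -1.05, -1.25 and -0.97 in Arid3b-null. Every Arid3b-null array was lower than every wild-type array, and the change of -0.63 ± 0.12 (SE) left 64.7% of the wild-type signal (limma adjusted p = 0.0116). It missed the threshold without the filter on dim probes (0.0552) and without wild-type replicate 1 (0.0511). The other members of group 4 did not pass: Hoxb4 read 2.28, 2.22 and 2.27 in wild type and 2.37, 2.36 and 2.32 in Arid3b-null, a change of 0.094 ± 0.093 (SE), and Hoxc4 changed by 0.085 ± 0.12 (SE) (limma adjusted p = 0.495 and 0.625). For Hoxb4 the arrays did not overlap, but they differed by little, with a 95% interval of -0.13 to 0.32.

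Group 5 includes Hoxa5, needed for the lung and trachea, and Hoxb5 and Hoxc5, which act in the shoulder and the brachial cord. Hoxa5 read -0.17, -0.50 and -0.37 in wild type and -0.70, -0.93 and -1.27 in Arid3b-null, a change of -0.62 ± 0.17 (SE) that left 65.2% (limma adjusted p = 0.0411). The groups did not overlap, but this was the weakest of the 11 calls. Its limma adjusted p was 0.127 without the filter, 0.0752 under the array-median background, 0.128, 0.0648 and 0.0926 without wild-type replicate 1, 2 or 3, and 0.0934 and 0.0961 without Arid3b-null replicate 2 or 3. Hoxb5 changed by -0.26 ± 0.11 (SE) and Hoxc5 by 0.28 ± 0.095 (SE), neither past the threshold (limma adjusted p = 0.122 and 0.0708). In both the arrays of the groups were separate, with the Arid3b-null arrays lower for Hoxb5 and higher for Hoxc5.

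In group 6, which acts in the thoracic skeleton and the forelimb-level cord, no member passed and all 3 had negative values. Hoxa6 read -2.14, -2.35 and -2.01 in wild type and -2.20, -2.74 and -2.90 in Arid3b-null, a change of -0.44 ± 0.20 (SE) (limma adjusted p = 0.152). Hoxb6 read 2.09, 1.89 and 1.77 in wild type and 1.76, 1.22 and 1.28 in Arid3b-null, a change of -0.49 ± 0.18 (SE) (limma adjusted p = 0.0833). With the replicate number, which is also the slide, as a block Hoxb6 passed (limma adjusted p = 0.0450), and without Arid3b-null replicate 1 both passed (0.0384 for Hoxa6 and 0.0321 for Hoxb6). Arid3b-null replicate 1 was the highest of its group in each case, and for Hoxa6 it lay within the wild-type range. Hoxc6 changed by -0.24 ± 0.17 (SE) (limma adjusted p = 0.342).

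Group 7, known for the thoracic skeleton and for blood progenitors, has 2 members in the mouse and both fell. Hoxa7 read 2.19, 1.78 and 2.41 in wild type and 1.64, 1.11 and 1.08 in Arid3b-null, and Hoxb7 read 0.78, 0.31 and 0.63 in wild type and 0.089, -0.44 and -0.24 in Arid3b-null. In neither gene did the groups overlap. Hoxa7 changed by -0.85 ± 0.22 (SE), leaving 55.4%, and Hoxb7 by -0.77 ± 0.19 (SE), leaving 58.5% (limma adjusted p = 0.0317 and 0.0247). Without the filter the limma adjusted p was 0.101 for Hoxa7 and 0.0859 for Hoxb7. With 1 array left out, in turn wild-type replicate 1, wild-type replicate 3, Arid3b-null replicate 2 and Arid3b-null replicate 3, it was 0.0939, 0.0874, 0.0958 and 0.104 for Hoxa7 and 0.0824, 0.0712, 0.0720 and 0.0800 for Hoxb7.

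Paralogue groups 9 to 13 pattern the lumbar and sacral body, the tail and the distal limb, and lie mostly behind or outside the dissected piece at this stage. Of their 16 members 8 could be tested, which favours those bright in at least 1 group: 1 rose, 3 fell and 4 did not pass. Among all tested genes 13.6% rose and 12.9% fell. Hoxa11, which with Hoxd11 patterns the forearm and also acts in the kidney, read -1.32, -2.21 and -1.60 in wild type and -3.73, -3.77 and -4.04 in Arid3b-null. The highest Arid3b-null array lay below the lowest wild-type array by more than the spread within either group. The change was -2.13 ± 0.23 (SE), which kept 22.8% of the signal and was a 4.39-fold fall (95% interval 2.98 to 6.46, limma adjusted p = 0.00203).

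Group 10 sets lumbar identity in the spine and in lumbar motor neurons, and both of its tested members fell. Hoxd10 read -1.49, -2.03 and -2.02 in wild type and -3.55, -3.85 and -3.86 in Arid3b-null, a change of -1.90 ± 0.18 (SE) that left 26.7% (95% interval of the fold 2.76 to 5.07, limma adjusted p = 0.00134). Hoxa10 read -3.01, -3.34 and -2.78 in wild type and -4.63, -4.51 and -4.90 in Arid3b-null, a change of -1.64 ± 0.18 (SE) that left 32.1% (95% interval of the fold 2.31 to 4.18, limma adjusted p = 0.00201). In both genes the 3 Arid3b-null arrays lay together and clear of the wild-type arrays, and every array was above background. Over the 15 alternatives other than local background the limma adjusted p was at most 0.0104 for Hoxd10, 0.0135 for Hoxa10 and 0.0132 for Hoxa11. Under local background the changes were -1.53, -1.25 and -1.65, with limma adjusted p of 0.200, 0.498 and 0.168. Under array-median background they were smaller as well, at -1.15, -0.64 and -1.30, or 2.23-fold, 1.56-fold and 2.46-fold. The third member, Hoxc10, was above background on no array.

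For Hoxd1 and the 3 genes that fell most, 250 bases before the start of transcription are printed as RefSeq gives them for GRCm38.p6, so that the sequence can be read beside the values. Capitals mark every match, on either strand, of the words searched: ATTAAA and ATCAAA (AT-rich words bound by ARID3 proteins), ACGTG (core of the hypoxia response element), AGGTCA (hexamer of nuclear receptors, retinoic acid receptors among them), TTTATG (bound by Cdx factors) and TATAAA (a core promoter box). Hoxa10 has another start at chr6:52240855-52241104 (minus strand) with no match. The windows lie at chr6:52245811-52246060 (minus strand) for Hoxa11, chr2:74691641-74691890 (plus strand) for Hoxd10, chr6:52234940-52235189 (minus strand) for Hoxa10 and chr2:74762730-74762979 (plus strand) for Hoxd1.
Hoxa11: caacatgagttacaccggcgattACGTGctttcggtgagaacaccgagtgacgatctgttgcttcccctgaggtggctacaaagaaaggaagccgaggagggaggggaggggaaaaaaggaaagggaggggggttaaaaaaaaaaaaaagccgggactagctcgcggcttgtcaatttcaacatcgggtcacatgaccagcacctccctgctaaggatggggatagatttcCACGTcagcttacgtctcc
Hoxd10: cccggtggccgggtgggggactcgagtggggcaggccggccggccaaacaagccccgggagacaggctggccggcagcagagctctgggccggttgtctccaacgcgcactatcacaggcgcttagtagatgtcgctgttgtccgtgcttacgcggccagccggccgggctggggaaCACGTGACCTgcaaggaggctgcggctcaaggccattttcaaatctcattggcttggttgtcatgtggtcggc
Hoxa10: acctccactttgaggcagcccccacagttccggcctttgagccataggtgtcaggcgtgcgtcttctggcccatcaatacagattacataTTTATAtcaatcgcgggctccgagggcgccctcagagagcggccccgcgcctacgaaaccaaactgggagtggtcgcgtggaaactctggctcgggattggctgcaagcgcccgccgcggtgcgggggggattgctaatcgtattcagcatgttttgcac
Hoxd1: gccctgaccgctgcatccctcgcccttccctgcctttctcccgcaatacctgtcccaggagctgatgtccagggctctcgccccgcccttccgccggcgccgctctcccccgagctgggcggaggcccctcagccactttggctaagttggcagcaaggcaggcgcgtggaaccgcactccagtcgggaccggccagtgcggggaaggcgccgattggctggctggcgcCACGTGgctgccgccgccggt

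The words were counted in all 24 windows that RefSeq holds for 22 of the 38 Hox genes, 7 of them among the 11 called, and in 32851 windows of all genes. An ARID3 word stood in 4 of the 24 Hox windows (16.7%), beside 20.9% of all windows, namely in windows of Hoxa2, Hoxa9, Hoxd8 and Hoxd11, and in no window of a called gene. The word ACGTG stood in 5 (20.8%, beside 16.6%), with 2 matches each in the Hoxa11, Hoxd10 and Hoxd1 windows printed above, where in Hoxd10 and Hoxd1 the palindrome CACGTG gives a match on either strand and in Hoxa11 the matches are separate. AGGTCA stood in 6 (25.0%, beside 14%), Hoxd10 and Hoxd3 among them, and in Hoxd10 it overlaps the ACGTG match. TTTATG stood in 5 (20.8%, beside 10.8%) and TATAAA in 4 (16.7%, beside 12.4%), including Hoxa10. The Hox windows had a median of 12.5 CpG and 58.6% GC, beside 6 and 52.4% for all windows. These are counts of letters in a short window, and ACGTG stood in the window of Hoxd1, which rose, as in those of Hoxa11 and Hoxd10, which fell.

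Group 9, which bounds the forelimb field and sets thoracic against lumbar motor neurons, was divided. Hoxb9 read 1.61, 1.86 and 1.57 in wild type and 2.52, 2.27 and 2.80 in Arid3b-null, with every Arid3b-null array above the wild-type arrays. It rose by 0.85 ± 0.16 (SE), 1.80-fold (limma adjusted p = 0.0125), and missed the threshold without the filter on dim probes (0.0528). Hoxa9 read -2.08, -2.52 and -2.28 in wild type and -2.08, -2.82 and -2.74 in Arid3b-null, a change of -0.25 ± 0.22 (SE) with overlapping arrays (limma adjusted p = 0.448), and its other probe changed by -0.33 ± 0.24 (SE, limma adjusted p = 0.362 over all probes). Hoxc9 and Hoxd9 changed by -0.45 ± 0.39 (SE) and -0.083 ± 0.18 (SE), and neither passed (limma adjusted p = 0.431 and 0.767). Hoxb9 was the only called member of groups 9 to 13 that rose.

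Of the remaining genes of groups 10 to 13, Hoxc12 passed the filter through its wild-type arrays and changed by -0.48 ± 0.38 (SE) without passing (limma adjusted p = 0.400). It passed without wild-type replicate 1 (limma adjusted p = 0.0411), the lowest of the 6 arrays. Hoxa13, Hoxb13, Hoxc10, Hoxc11, Hoxc13 and Hoxd12 were above background on 0 of 6 arrays and have no usable level. Hoxd11 read -5.12, -6.07 and -5.95 in wild type, where 1 array was above background, and -7.58, -7.03 and -7.02 in Arid3b-null, where none was. All 3 Arid3b-null arrays lay below the wild-type arrays, but with 1 of 6 values above background the size of the difference is not given. In the fit without the filter on dim probes Hoxd11 passed as lower (limma adjusted p = 0.0468). Hoxd13, the most posterior gene of its cluster, read -4.63, -5.80 and -4.86 in wild type and -6.01, -6.13 and -6.57 in Arid3b-null, with 2 arrays above background in either group, and was not tested.

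**Figure D2:**
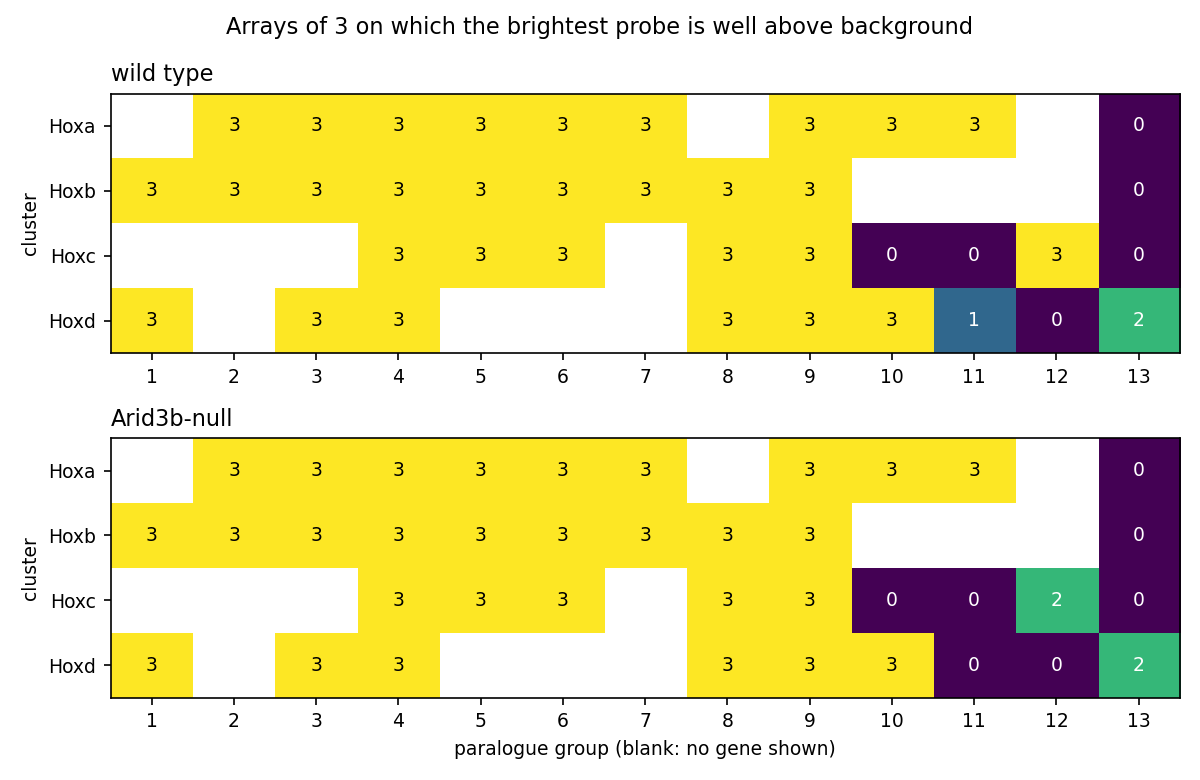
Number of arrays of 3 (printed in each cell) on which the brightest probe of a Hox gene stood well above background, by cluster (rows) and paralogue group (columns), in wild type (top) and Arid3b-null (bottom). The genes shown of groups 1 to 9 are above background on all 3 arrays of either group, and the genes at 0 are Hoxa13, Hoxb13, Hoxc10, Hoxc11, Hoxc13 and Hoxd12 in both groups and Hoxd11 in Arid3b-null.

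The changes differed from cluster to cluster, and these differences were not tested. For comparison, 13.6% of all tested genes were higher and 12.9% lower. In Hoxa, 9 genes were tested in limma, with 0 higher (0 at an unadjusted p under 0.05), 5 lower and a median change of -0.62. In Hoxb, 9 were tested, with 1 higher, 2 lower and a median of 0.094. Of the 6 tested Hoxc genes none passed (limma, median -0.33, 1 higher and 0 lower at an unadjusted p under 0.05), and the value farthest from 0 was that of Hoxc12. In Hoxd 6 were tested, with 2 higher, 1 lower and a median of 0.24. Within Hoxa the 2 tested genes nearest the 5' end fell most, while Hoxa2, Hoxa3, Hoxa6 and Hoxa9 did not pass.

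Along the clusters the change went down as the paralogue number went up in Hoxa, Hoxc and Hoxd and not in Hoxb. Over the 30 tested genes Spearman's rho between paralogue number and change was -0.47, as a description across genes that share the same 6 arrays and are not independent replicates. On the 3 slides taken singly it was -0.34, -0.55 and -0.53. By cluster it was -0.65 over 9 Hoxa genes, 0.050 over 9 Hoxb genes, -0.94 over 6 Hoxc genes and -1.0 over 6 Hoxd genes. In Hoxc the order came from slides 2 and 3 (-0.89 on each) and not from slide 1 (0.086), and no single Hoxc gene passed the test. In Hoxb it was the values of Hoxb8 and Hoxb9, 0.55 and 0.85, that stood above those of Hoxb5, Hoxb6 and Hoxb7, -0.26, -0.49 and -0.77.

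**Figure D3:**
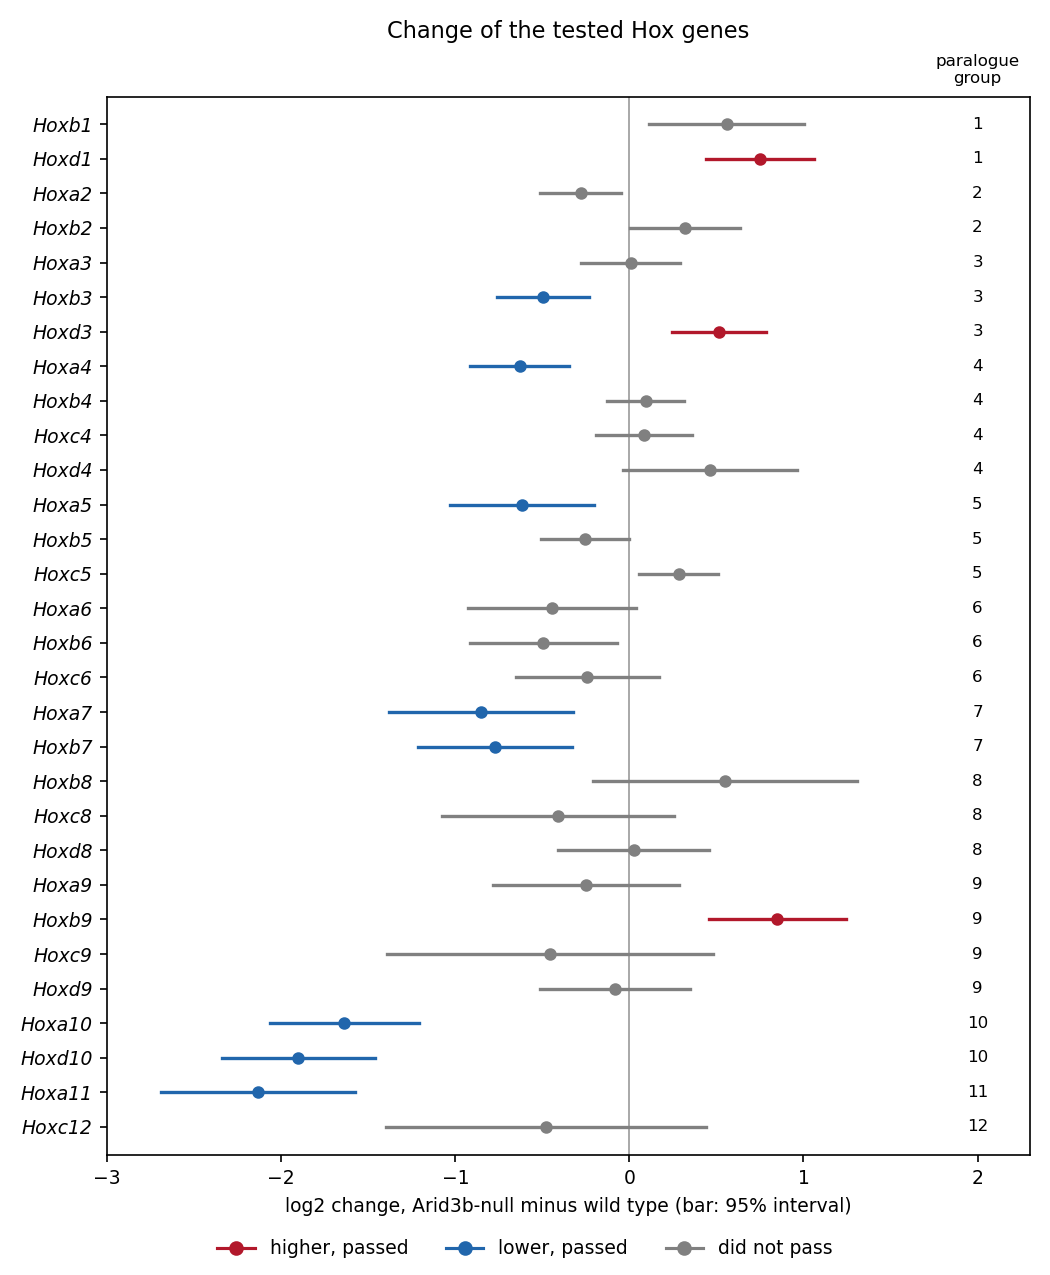
Log2 change (Arid3b-null minus wild type, horizontal axis) of the 30 tested Hox genes, ordered by paralogue group, with dots for the limma estimate from 3 arrays a group and bars for its 95% interval, red and blue for genes that passed as higher or lower and grey for the rest. Estimates run from 0.85 for Hoxb9 to -2.13 for Hoxa11, and the 2 members of group 7 and the 2 tested members of group 10 lie below 0.

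Paralogues did not always move together. Hoxb1 and Hoxd1 of group 1 were above 0 and both members of group 7 and both tested members of group 10 were called lower. In groups 2, 3, 4, 5, 8 and 9 the tested members lay on both sides of 0, and in group 3 Hoxd3 rose while Hoxb3 fell on 1 of its 2 probes. In group 4 only the Hoxa member passed, at -0.63 beside 0.094 for Hoxb4, 0.085 for Hoxc4 and 0.46 for Hoxd4. Differences between members were not tested, because each gene's call comes from its own comparison of the groups.

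Several members spread widely between the Arid3b-null arrays although their wild-type arrays were nearly equal. Hoxb8, which limits the forelimb field and acts in the dorsal cord, read 2.06, 2.01 and 1.96 in wild type and 2.88, 1.78 and 3.02 in Arid3b-null. Arid3b-null replicate 2 lay below the wild-type arrays and the other two above them, so the change of 0.55 ± 0.32 (SE) did not pass (limma adjusted p = 0.245). Without that array it was 0.94 (limma adjusted p = 0.00877). Hoxd4, a marker of the hindbrain behind rhombomere 6, read 3.28, 3.26 and 3.25 in wild type and 3.85, 3.26 and 4.07 in Arid3b-null, with replicate 2 again at the wild-type level. Its change was 0.46 ± 0.21 (SE) (limma adjusted p = 0.149), and 0.70 without that array (limma adjusted p = 0.0198). For Hoxb9 replicate 2 was likewise the lowest of the Arid3b-null arrays, though above wild type.

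In other members, Hoxa6, Hoxb6, Hoxa7 and Hoxb7 above among them, Arid3b-null replicate 1 was the highest of its group. Hoxc9 read -0.079, -1.0 and -0.42 in wild type and -0.14, -1.26 and -1.46 in Arid3b-null, and Hoxc8 -2.24, -3.06 and -2.80 and -2.64, -3.43 and -3.26. In both genes replicate 1 was also the highest wild-type array, and slide 1 was the slide on which the arrays of Hoxc9 differed least. The median SD between Arid3b-null arrays was 0.21 over the tested Hox genes and 0.17 over all genes, and between wild-type arrays it was 0.16 in either set.

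**Figure D4:**
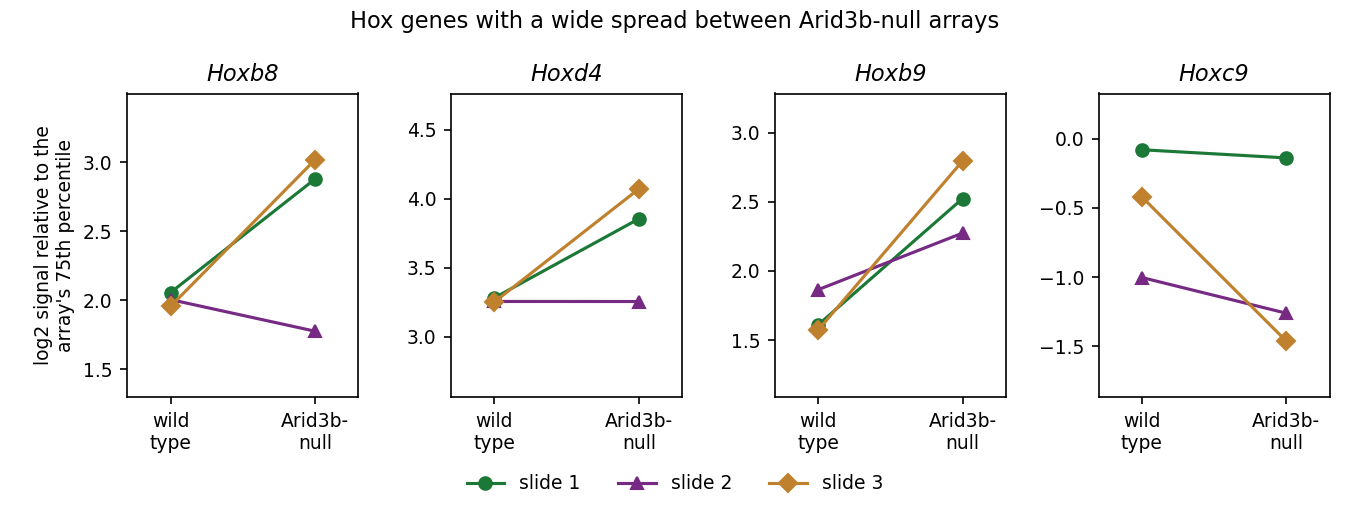
Log2 signal relative to the array's 75th percentile (vertical axis, same span in each panel) of Hoxb8, Hoxd4, Hoxb9 and Hoxc9 in wild type and Arid3b-null, with a line joining the 2 arrays of each of the 3 slides. In Hoxb8 and Hoxd4 the line of slide 2 runs level or down while those of slides 1 and 3 rise, in Hoxb9 all 3 rise, and in Hoxc9 slide 1 stays level while slide 3 falls by 1.04.

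Of the 8 listed genes for TALE cofactors, the homeodomain partners with which Hox proteins bind DNA, 0 rose, 1 fell and 7 did not pass in limma (0 higher and 2 lower at an unadjusted p under 0.05). The lower share was 12.5%, beside 12.9% of all tested genes (13.6% were higher), so the count is no result about the list. Meis3 read 1.94, 1.88 and 1.88 in wild type and 1.26, 1.30 and 1.41 in Arid3b-null, without overlap, a change of -0.58 ± 0.099 (SE) (limma adjusted p = 0.00811). The mean of the Meis3 probes changed by -0.41 and did not pass (limma adjusted p = 0.0552). Pbx2 and Meis1 changed by 0.099 ± 0.11 (SE) and 0.15 ± 0.14 (SE) (limma adjusted p = 0.525 and 0.467). The median over the 8 was 0.12.

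Signals and factors that start the clusters along the axis were higher or did not pass. Of 17 listed genes 15 were tested, 7 rose, 0 fell and 8 did not pass in limma (8 higher and 0 lower at an unadjusted p under 0.05), with a median change of 0.59. Those that rose were 46.7% of the tested members, beside 13.6% of all genes. Cyp26a1, which degrades retinoic acid, rose by 1.01 ± 0.14 (SE), and the retinoic acid receptors Rarb and Rarg rose by 0.82 and 0.90 (limma adjusted p = 0.00451, 0.00775 and 0.00503). Aldh1a2, which makes retinoic acid in the trunk, did not pass (0.22 ± 0.13 (SE), limma adjusted p = 0.249). Of the Cdx genes Cdx1 rose by 0.77 (limma adjusted p = 0.0102), Cdx2 changed by 0.16 ± 0.24 (SE) without passing and Cdx4 was above background on no array. Egr2 (Krox20) read -7.52, -5.80 and -6.88 in wild type, with 1 array above background, and -3.43, -3.25 and -4.18 in Arid3b-null, and passed as higher (limma adjusted p = 0.00496). It passed the filter on dim probes through its Arid3b-null arrays alone. Lin28a and T also rose, by 0.59 and 0.83. Both calls ended without the filter (limma adjusted p = 0.0887 and 0.126), that of Lin28a also with wild-type array 1 or 3 or Arid3b-null array 1, 2 or 3 left out (0.0574 to 0.0849), and that of T with wild-type array 3 or Arid3b-null array 1, 2 or 3 left out (0.0638 to 0.109). Under local background the values of Egr2 and T turned negative, at -0.17 and -0.45. Cyp26a1 was at 0.089 there, while Cdx1, Rarb, Rarg and Lin28a were at 0.87, 0.98, 1.07 and 0.88, and none passed.

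Among 26 Polycomb, Trithorax and boundary genes, which keep Hox chromatin closed or open, 23 were tested, 3 rose, 3 fell and 17 did not pass, with a median of -0.049. Higher and lower members were 13% each, near the shares of all genes (13.6% and 12.9%), so the count is no result about the list. Ezh1 rose by 1.01 ± 0.11 (SE, limma adjusted p = 0.00180) and Jarid2 by 0.67 (0.0172), while Cbx2 and Brpf1 changed by -0.54 and -0.44 (limma adjusted p = 0.0197 and 0.0228). The core subunits Ezh2, Eed and Suz12 changed by -0.038, -0.24 and -0.068, none past the threshold. Kdm6b also rose and Ctcf also fell. Of these 6 calls only that of Ezh1 held without the filter and whichever array was left out. For the other 5 the limma adjusted p without the filter was 0.0693 (Jarid2) to 0.133 (Ctcf). Jarid2 lost its call with wild-type array 1 or 2 left out (0.0530 to 0.0652), Cbx2 with wild-type array 1 or 2 or Arid3b-null array 1 or 2 left out (0.0528 to 0.0615), Brpf1 with wild-type array 1 or 2 or Arid3b-null array 1, 2 or 3 left out (0.0554 to 0.0918), Kdm6b with wild-type array 1 or 3 or Arid3b-null array 1, 2 or 3 left out (0.0534 to 0.0950) and Ctcf whichever array was left out (0.0659 to 0.101). Ctcf also lost it with the replicate block (limma adjusted p = 0.0657) and quantile scaling (0.0525), and Brpf1, Kdm6b and Ctcf with median scaling (0.0629, 0.0573 and 0.0812), Brpf1 also in the deposited table (0.0591).

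The genes that flank the clusters gave no common direction. Of 14 listed, 11 were tested, 1 rose, 1 fell and 9 did not pass. Each direction held 9.09% of those tested, beside 13.6% higher and 12.9% lower of all genes, so the count is no result about the list. Calcoco1, beside Hoxc, rose by 1.09 ± 0.14 (SE, limma adjusted p = 0.00307), though it was -0.017 under local background, and Mtx2, beside Hoxd, fell, with a change of -0.63 ± 0.11 (SE) (limma adjusted p = 0.00952). Evx1 and Evx2, the homeobox genes at the 5' ends of Hoxa and Hoxd, were too dim to test. Of 16 noncoding transcripts of the clusters 2 had a named probe. Hoxa11os, transcribed opposite to Hoxa11, read -0.093, -1.17 and -0.56 in wild type and -2.18, -2.15 and -2.77 in Arid3b-null. Its groups were separate like those of Hoxa11, with a change of -1.76 ± 0.30 (SE) (limma adjusted p = 0.00838). Whether its probe also overlaps Hoxa11 exons was not checked, since probe sequences were not used here. Hoxd3os1 did not pass (0.19, limma adjusted p = 0.513).

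Of 9 listed genes known to be regulated by Hox proteins, 1 rose, 1 fell and 7 did not pass, with a median of -0.041. Higher and lower members were 11.1% each, near the 13.6% and 12.9% of all tested genes, so the count is no result about the list. Ret, a receptor used by motor axons and enteric crest, rose by 0.82 ± 0.11 (SE, limma adjusted p = 0.00380). Under local background its change was 0.13 (limma adjusted p = 0.855). Shh, the signal of the floor plate and of the posterior limb bud, fell, with a change of -0.66 ± 0.15 (SE) (limma adjusted p = 0.0229). The Shh call ended under array-median background (-0.26, limma adjusted p = 0.0923), without the filter (0.0843) and with wild-type array 1 or 3 or Arid3b-null array 1 or 2 left out (0.0534 to 0.0716). Foxp1, Six2 and Gdnf changed by -0.041, 0.22 and -0.24 and did not pass.

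Called members of the marker lists of cell types and levels stand beside 13.6% higher and 12.9% lower of all tested genes. Lower were 100% of the tested motor neuron and liver bud genes and 50% of neural tube progenitor genes. In the somite, the forebrain and midbrain and the tail bud lists 25% were lower. Higher were 100% of rhombomere, 75% of neural crest and 50% of tail bud genes. Both rhombomere genes and Erbb3 passed the filter through their Arid3b-null arrays alone, and Alb through its wild-type arrays alone. The lateral plate and forelimb list had 16.7% each way and gut endoderm 20%, which is 1 gene each and no result about them. All 6 tested spinal motor neuron genes of 7 listed fell, with a median of -1.81, and their summed linear signal, in multiples of the array's 75th percentile, was 2.43 to 3.14 in wild type and 0.725 to 0.888 in Arid3b-null. Lhx3 read -0.27, -0.86 and -0.54 in wild type and -4.54, -3.58 and -4.53 in Arid3b-null, none of them overlapping. Slc18a3, Isl2 and Lhx4 changed by -2.67, -1.15 and -2.18, and under array-median background Lhx3, Slc18a3 and Lhx4 by -2.25, -1.81 and -1.35. Of the neural tube progenitor genes 3 of 6 fell, Fabp7, Nes and Sox3 (-1.50, -0.99 and -1.30, summed signal 28 to 30.6 and 13.9 to 15.4). Sox1, Sox2 and Pax6 changed by -0.33, -0.025 and -0.090 and did not pass. Nes and Sox3, the brightest of the 6 in wild type (4.12 and 2.84), weigh most in that sum. Of the somite genes 2 of 8 fell, Pax1 and Meox2 (-1.95 and -0.55, summed signal 19.6 to 21.4 and 17.3 to 20.7). In the lateral plate and forelimb list 1 of 6 passed as higher, Fgf10, and 1 as lower, Foxf1 (7.17 to 7.45 and 7.14 to 8.15). Fgf10 changed by 0.84, and by 0.17 under local background. The Foxf1 call ended with the replicate block (limma adjusted p = 0.0703), under array-median background (-0.14, limma adjusted p = 0.509), without the filter (0.142) and with wild-type array 2 or 3 or Arid3b-null array 1, 2 or 3 left out (0.0763 to 0.123). The Meox2 call ended without the filter (0.0959) and with wild-type array 1 or 2 or Arid3b-null array 2 or 3 left out (0.0702 to 0.0922). All of these tissues express Hox genes of groups 4 to 10, and their part in the lower Hox signals was not tested.

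At the front of the piece, both listed hindbrain rhombomere genes rose: Egr2 as above and Fgf3, which was above background on no wild-type array. On the processed signal Fgf3 was at least 2.67-fold higher, with wild-type values set no lower than the array's dimmest value above background. That bound does not hold under the other background corrections. Their summed signal was 0.0138 to 0.0318 in wild type and 0.0926 to 0.145 in Arid3b-null. Both passed the filter through their Arid3b-null arrays alone, which favours a difference. Under array-median background Fgf3 and Erbb3 changed by 0.35 and 0.42 and did not pass (limma adjusted p = 0.0812 and 0.0579), and Egr2 changed by 0.88. Of the neural crest genes 3 of 4 rose (3.25 to 4.0 and 5.58 to 6.50), with Foxd3 at 1.07, Sox10 at 0.85 and Erbb3 at 1.20. Erbb3, above background on 2 wild-type arrays, also passed the filter through its Arid3b-null arrays alone. The rhombomere and neural crest genes that rose moved with Hoxd1 and Hoxd3, and their part in those rises was not tested. Under local background Fgf3 and Erbb3 were at -0.76 and -0.61, Foxd3 at 0.13 and Sox10 at 0.91. Of the forebrain and midbrain genes 1 of 4 tested passed as lower, Lhx2 (3.34 to 3.60 and 2.15 to 3.00), and Six3 and Barhl2 were above background on no array. The Lhx2 call ended with the replicate block (limma adjusted p = 0.0536), with quantile or median scaling (0.0513 and 0.0736), in the deposited table (0.0584), without the filter (0.146) and whichever array was left out (0.0602 to 0.141).

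At the rear, the tail bud list was mixed. Of 4 tested genes T and Tbx6 rose, by 0.83 and 1.66, and Dll3 fell, with a change of -1.82 (summed signal 2.12 to 2.89 and 1.50 to 1.73). The hindlimb-level gene Pitx1 read -0.24, -0.55 and -0.32 in wild type and 0.53, -0.49 and -0.18 in Arid3b-null. Its linear signal alone was 0.681 to 0.849 and 0.712 to 1.45, since Tbx4 was too dim to test and entered no sum. Pitx1, the 1 tested gene of the hindlimb list, did not pass (limma adjusted p = 0.403). In the same trunks Hoxa10, Hoxa11 and Hoxd10 were lower, and the part of caudal tissue in those falls was not tested. The 4 liver bud genes Afp, Alb, Ttr and Hnf4a fell by 1.45, 2.91, 1.10 and 1.24 (7.50 to 9.12 and 1.99 to 4.89). Alb passed the filter through its wild-type arrays alone, which favours a difference. Its Arid3b-null arrays read -8.25, -5.23 and -5.16. The first value lay below the dimmest value above background on that array (-6.57), so the size of its fall is uncertain. Without the filter Afp and Alb did not pass (limma adjusted p = 0.0803 and 0.108), and Afp lost its call with wild-type array 1, 2 or 3 or Arid3b-null array 3 left out (0.0611 to 0.0771) and Alb with wild-type array 1, 2 or 3 or Arid3b-null array 2 or 3 left out (0.0501 to 0.0980), and under array-median background Alb changed by -0.73. The 4 heart genes did not pass in limma (0 at an unadjusted p under 0.05) and varied between arrays of a group (4.92 to 12.3 and 2.11 to 11.3), with Myh6 at 1.31, 3.01 and 2.58 in wild type and -2.03, 2.86 and 2.44 in Arid3b-null, and Nkx2-5 changed by 0.27. In the gut endoderm list 1 of 5 rose, Sox17 at 1.21, and 1 fell, Shh, which 2 lists share.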

How the data were processed

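RNA of Arid3b-null and wild-type embryonic trunks was measured on 6 one-colour Agilent arrays, 3 per group, each from 4 pooled embryos. Per the file headers, the deposited intensity values are output of Agilent Feature Extraction 10.7.3.1 (protocol GE1_107_Sep09, design 026655, header build mm9), and that software had subtracted the background in the processed signal. The authors also deposited a log2 value table of unstated normalization, not centred per gene (column medians 6.77 on every array, correlation with the arrays' log2 processed signals 0.9987 or more), which served as an alternative. Array precision is limited by the number of arrays.

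Probe accessions were matched to symbols in the RefSeq gene table of GRCm38.p6. This named 26424 of 39429 probes (67%) with 1 symbol, several for 0 and none for 13005. Probes with no symbol were grouped by accession, and each such accession counts among all genes. Main values are log2 processed signal minus the array's 75th percentile, with outlier spots (100 to 169 per array) set to missing and spots of a probe averaged. Probes had to be well above background on every array of 1 group or of both. A gene took its brightest tested probe. The groups were compared gene by gene with limma 3.58.1 (lmFit, eBayes; R 4.3.3), two-sided, at a Benjamini-Hochberg threshold of 0.05 over 19794 genes. The fit was tested on simulated data.

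Each slide held the arrays of 1 replicate number, so the slide block and the replicate block are 1 fit. Same-numbered arrays deviated together from their group means (correlations over genes 0.16, 0.39 and 0.28). Alternatives were normexp (offset 50) with local or array-median background, quantile and median scaling, the deposited table, other dim-probe filters, the mean of a gene's probes, single probes, the block and each array left out.

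The Hox genes, the pathway and marker lists and the tests were chosen with earlier results of these data known. Named are Arid3b, the Hox genes (each array for called genes, genes with discordant probes and cluster neighbours of called genes) and, per list, the called members of smallest adjusted p (at most 4), or where there were none, the 2 of smallest p. Isl1 and Olig2 entered the alternatives with the named genes. Cdx1, Cdx2, Aldh1a2, Lin28a, Pbx2, Meis1, Ezh2, Eed, Suz12, Kdm6b, Ctcf, Foxp1, Six2, Gdnf, Sox1, Sox2, Pax6, Hoxd3os1 and the dim genes were named after their values were seen. Positions of probes in the genome were not used here. Results of 5 genes, 1 of them a Hox gene, are not reported here. They stayed in the fit over all genes and were left out of the counts over Hox genes and lists.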

Additional observations from a re-analysis of the deposited data

How the results depend on the processing

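Hox counts with quantile or median scaling, the deposited table, only probes above background on all arrays, single probes and the replicate block stayed within 1.5 times those reported (3 higher, 8 lower), and all 11 calls were kept under each of these. Averaging probes per gene ended 1 call, as did array-median background. With the replicate block, which pairs the arrays of a slide, Hoxb6 was added (limma adjusted p = 0.0450) and no other Hox call changed, while of the listed genes Lhx2, Foxf1 and Ctcf lost theirs. With normexp on local background 0 Hox genes were higher and 0 lower, and of all genes 2 and 0. There the values of Hoxd8 (-0.17), Calcoco1 (-0.017), Nkx2-5 (-0.29), Egr2 (-0.17), Fgf3 (-0.76), Erbb3 (-0.61) and T (-0.45) changed sign, and the cause was not tested. With array-median background Hoxa3 changed sign (-0.035). Without the filter, which adds dim genes to the adjustment (32530 tested), 1 of the 30 Hox genes was higher and 3 lower, and of all genes 1288 and 998. Hoxd11, outside the 30, also passed as lower there. Leaving out 1 array gave 2 to 4 Hox genes higher and 4 to 10 lower, a Hox median of -0.36 to -0.17, and 1660 to 2018 genes higher and 1210 to 2024 lower of all. In these fits Hoxa3 ranged from -0.060 to 0.078, Hoxd8 from -0.15 to 0.13, Hoxd9 from -0.22 to 0.070 and Myh6 from -2.10 to 0.35. Calls were 51.3% higher as reported, 56.3% without the filter, 57.8% and 58.6% when wild-type replicate 1 or Arid3b-null replicate 3 was left out. Over all settings and named genes 175 of 1242 values lost a call, 5 of them with a change of sign, 7 gained one, 11 changed sign without a call and 1049 kept direction and call. Signals near background left 8 of the 16 genes of groups 9 to 13 untested.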
